A study of Homo sapiens with 4 samples.

Results

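The ubiquitin-specific protease (USP) genes were examined in MHCC97H cells, an established human hepatocellular carcinoma (HCC) line, after knockdown of UBXN1. Members were the protein-coding genes named USP plus a number that had 20 or more counts summed over the 4 libraries, with USP18, the USP17-like genes and USPL1 left out. By this rule 47 genes were members, of 51 USP-numbered genes and 61541 gene entries in the count table. Messenger RNA was sequenced from 2 libraries of cells carrying a control short hairpin RNA (shCon) and 2 libraries of cells carrying a hairpin against UBXN1 (shUBXN1). UBXN1 encodes a ubiquitin-binding UBX-domain protein, and the comparison asked which transcripts differed when it was depleted. All groups share the single MHCC97H line. The labels call the control shCon, whereas the study's methods name shRFP for this comparison. The study lists several hairpins against human UBXN1. The sources do not say which of these the sequenced cells carried, nor name its promoter or the day of harvest. They also do not say whether the replicate numbers stand for separate cultures. The p-values therefore measure the spread between these libraries, which may be technical.

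USP proteins form the largest family of deubiquitinases. They are cysteine proteases that cut the bond between ubiquitin and a substrate, or between 2 ubiquitins in a chain, and so can spare a protein from the proteasome or end a ubiquitin signal. Members differ in the domains around the shared catalytic fold, and these set where each acts: on histones, at the proteasome, on endosomes, on mitochondria or at damaged DNA. In liver cancer cells several are studied as stabilizers of growth regulators and of p53 partners.

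The libraries held 23373700 to 27380508 counts. UBXN1 stood at 67.1 and 77.3 CPM (counts scaled to the TMM-adjusted size of each library) in shCon and at 16.8 and 18.5 CPM in shUBXN1, a log2 fold change of -2.03 ± 0.096 (SE) with an edgeR adjusted p of 9.98e-10, in the direction of the labels. Counts on the mitochondrial genome were 5.28% and 5.59% of the total in shCon and 7.43% and 8.27% in shUBXN1, and their part in the results below was not tested. Of 11 liver and HCC markers, GPC3 was at 0 in every library, and of the 10 tested 6 were lower in shUBXN1 and 2 higher. ALB was at 16.0 and 14.8 TPM (level per gene length, computed here with the deposited lengths) in shCon and 3.99 and 4.21 TPM in shUBXN1. KRT8 was lower as well, at 4047 and 4059 against 2993 and 3239 TPM, and KRT18 and SERPINA1 were higher, with log2 fold changes of 0.31 and 0.40. Of 9 markers of other cell types, 4 were tested. CD68, at 98.4 and 102 against 92.7 and 83.2 TPM, was lower (log2 fold change -0.25), and PECAM1, at 9.97 and 9.61 against 13.7 and 12.4 TPM, was higher (0.35). The other 7 were below 1 TPM in every library, with CD3E at 0 in all 4. Among these, COL1A1 was higher, at 0.129 and 0.0569 against 0.859 and 0.858 TPM, VWF did not pass, and CDH5 went from 3 and 6 counts to 0 and 0 and COL3A1 from 7 and 15 counts to 4 and 3. The part of these marker values in the results below was not tested. In RNA from whole cultures, fewer cells of a kind and less RNA per cell cannot be told apart.

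Across the family, members were called in both directions. Of the 47 members, 46 passed the filter on low counts and were tested with the quasi-likelihood test of edgeR, and p-values were adjusted over all 16863 genes by the Benjamini-Hochberg method. At an adjusted p under 0.05, 28 of the 46 were called (60.9%), where 56.2% of all genes tested and 61.8% of protein-coding genes tested were called. Of these, 17 were higher in shUBXN1 (37.0%, against 28.0% of all genes) and 11 were lower (23.9%, against 28.2%), and 18 did not pass. These shares lie near the background, and no test of the family as a whole was made. The median log2 fold change of the members was 0.003, beside 0.016 over all genes tested. Their median size of change, regardless of sign, was 0.30 on the log2 scale, beside 0.44 over all genes and 0.42 over protein-coding genes.

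**Figure D1:**
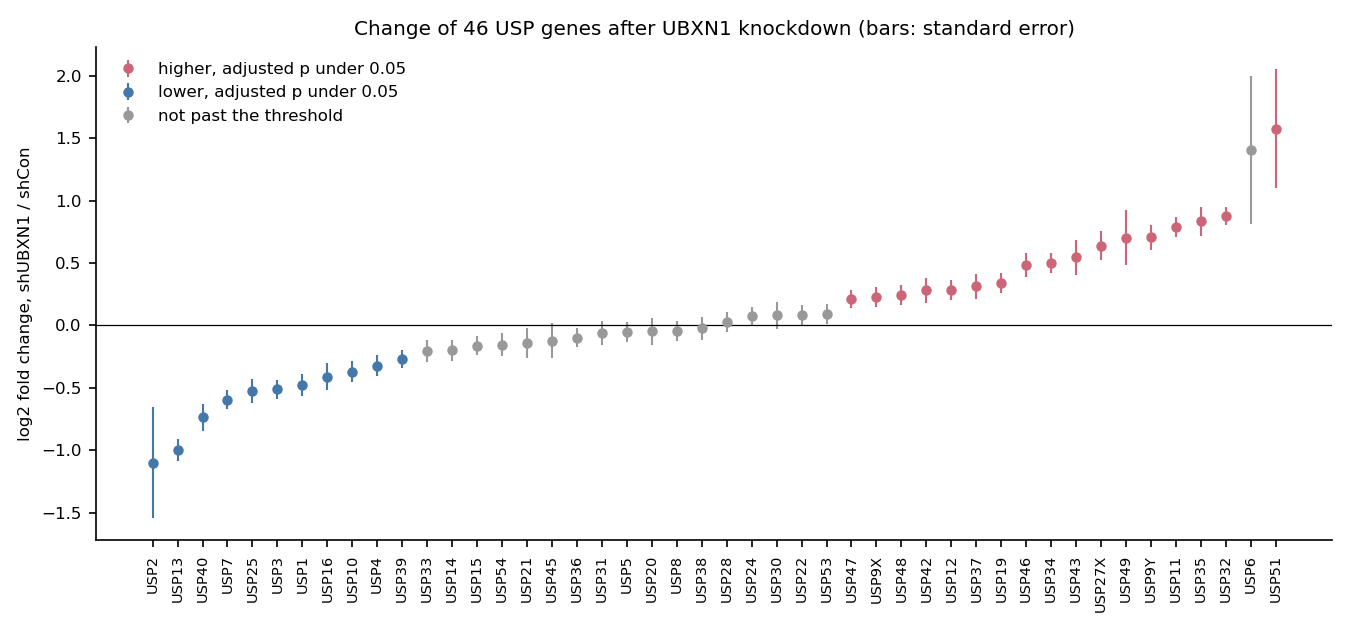
Log2 fold change of the 46 USP genes tested, shUBXN1 against shCon, in order of size; points are edgeR estimates and bars are 1 standard error. Called genes run from USP2 at -1.10 to USP51 at 1.58, and the 3 widest bars belong to USP2, USP6 and USP51, the genes of lowest level.

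Large changes were few. At a fold change of 2 with an unadjusted p under 0.05, 2 members were higher, USP51 and USP6 (4.35% of the 46, against 11.8% of all genes), and 2 were lower, USP2 and USP13 (4.35%, against 6.09%). With the fold at 1.5 these became 8 higher (17.4%, against 19.0% of all genes) and 4 lower (8.7%, against 14.4%). The libraries of the groups did not overlap in 36 of the 46 members (78.3%, against 78.0% of all genes), with shUBXN1 above in 20 and below in 16.

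The summed level of the 47 members was 1237 and 1186 TPM in shCon and 1248 and 1217 TPM in shUBXN1, with the groups overlapping. The 5 members of highest level made up 41.3% and 41.9% of that sum in shCon and 37.3% and 39.1% in shUBXN1. USP22, the deubiquitinase of the SAGA histone-modifying complex, had the highest level, at 173 and 157 TPM in shCon and 181 and 184 TPM in shUBXN1. Although its TPM values did not overlap, its CPM values did (440 and 413 against 433 and 474), and it was not called (log2 fold change 0.09 ± 0.080, edgeR adjusted p = 0.38). It was called higher without shUBXN1 replicate 1 (0.15, adjusted p = 0.0341) and with total count scaling (0.17, adjusted p = 0.0275). The other 4 were USP7, USP5, USP39 and USP14, with mean levels over the 4 libraries of 88.8, 81.5, 74.2 and 69.2 TPM. In all, 29 members averaged above 10 TPM and 4 (USP2, USP51, USP50 and USP6) below 1 TPM.

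**Figure D2:**
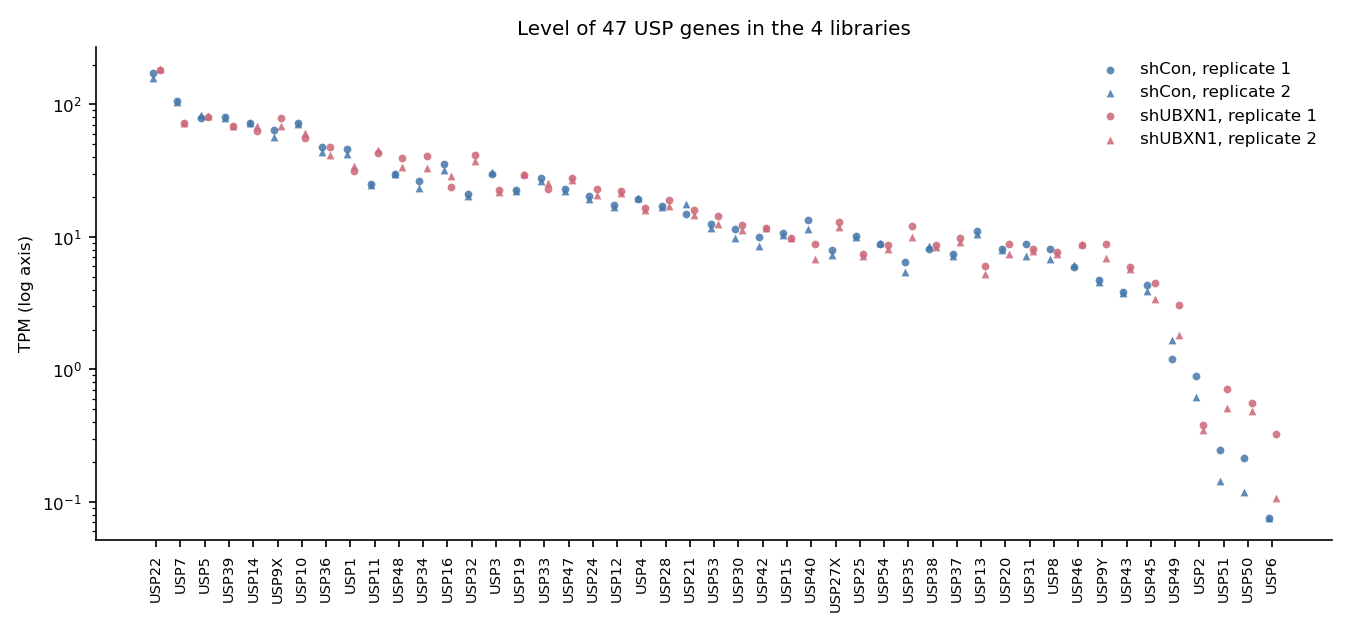
Level of the 47 USP genes in each library in TPM (log axis), ordered by mean; blue points are shCon, red points are shUBXN1, circles are replicate 1 and triangles replicate 2. USP22 stands alone at 157 to 184 TPM, and the points of the 2 groups separate plainly for genes such as USP7, USP32, USP11 and USP13.

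USP7, the second most abundant member, is the deubiquitinase that acts on MDM2 and p53. Its gene lies on the minus strand at chr16:8892097-8975328 (positions here are GRCh38, from GENCODE v44). It stood at 279 and 283 CPM in shCon and 180 and 192 CPM in shUBXN1, so both knockdown libraries lay well below both controls. It fell by 0.60 on the log2 scale (SE 0.074, edgeR adjusted p = 9.68e-06). USP5, which takes apart free ubiquitin chains, was at 123 and 134 CPM against 118 and 129 CPM, with overlapping groups and a log2 fold change of -0.05 ± 0.0785. USP39, a spliceosome protein classed as lacking protease activity, was at 86.6 and 86.8 CPM against 69.3 and 74.7 CPM. It fell by 0.27 (SE 0.075, edgeR adjusted p = 0.00694), but without shCon replicate 2 the adjusted p was 0.0819. USP14, which trims chains at the proteasome, was at 178 and 182 CPM against 144 and 170 CPM and did not pass (log2 fold change -0.20, edgeR adjusted p = 0.0566). It passed in several alternatives: without shUBXN1 replicate 2 the change was -0.34 with an adjusted p of 5.75e-05, and with all 4 libraries the adjusted p was 0.0136 with a replicate block, 0.018 with no filter on low counts and 0.0441 with limma-voom.

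Of the 8 members tested that act in DNA repair, replication and the cell cycle, 7 were called, where 56.2% of all genes and 61.8% of protein-coding genes were. In shUBXN1, 4 were higher (USP11, USP37, USP47 and USP48) and 3 lower (USP1, USP7 and USP10), with a median log2 fold change of 0.12. USP11, a partner of BRCA2-dependent repair, at chrX:47232866-47248328, was at 40.8 and 41.6 CPM in shCon and 66.8 and 75.6 CPM in shUBXN1. Both knockdown libraries were well above the controls, and the log2 fold change was 0.79 ± 0.083 (edgeR adjusted p = 1.91e-06). USP1, which removes ubiquitin from FANCD2 and PCNA, was at 79.9 and 74.7 CPM in shCon and 51.2 and 59.9 CPM in shUBXN1. It fell by 0.48 (SE 0.086, edgeR adjusted p = 0.000298). USP10, which binds G3BP1 and deubiquitinates p53, was at 96.9 and 98.7 CPM against 69.5 and 81.8 CPM and fell by 0.37 (SE 0.084, edgeR adjusted p = 0.00173). USP28, known for acting on MYC, was the one member of the list that did not pass, at 39.2 and 39.5 CPM against 40.9 and 39.4 CPM.

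The 3 smaller rises on that list were less firm. USP37, which acts on cyclin A, was at 18.4 and 18.2 CPM against 22.9 and 22.7 CPM (log2 fold change 0.31, edgeR adjusted p = 0.0157), with adjusted p-values of 0.0705 without shCon replicate 1 and 0.135 without shCon replicate 2. USP47, which acts on DNA polymerase beta, was at 82.9 and 83.6 CPM against 94.3 and 99.0 CPM (0.21, edgeR adjusted p = 0.0211), and the adjusted p was 0.134 and 0.245 without shCon replicate 1 or 2. USP48 was at 47.4 and 48.6 CPM against 59.2 and 54.3 CPM (0.24, edgeR adjusted p = 0.0173), with 0.115, 0.144 and 0.071 without shCon replicate 1, shCon replicate 2 or shUBXN1 replicate 1. USP37 and USP47 share bases with a neighbour on the other strand, and no source says whether counting used strand. VIL1 covers 32.8% of the exon bases of USP37 and DKK3 covers 41.4% of those of USP47. VIL1 fell by 1.66 on the log2 scale and DKK3 had a log2 fold change of 0.64, so the values of USP37 and USP47 are uncertain.

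Histone deubiquitinases were called in 5 of 6 cases, 3 higher and 2 lower (28.0% and 28.2% of all genes), with a median log2 fold change of 0.36. USP3, which removes ubiquitin from histone H2A, was at 81.1 and 86.2 CPM in shCon and 57.8 and 59.5 CPM in shUBXN1. It fell by 0.51 (SE 0.075, edgeR adjusted p = 4.62e-05). Its antisense gene USP3-AS1 covers 24.6% of its exon bases but had at most 55.42 counts in a library. USP16, another H2A deubiquitinase, was at 51.2 and 47.6 CPM against 32.2 and 42.2 CPM and fell by 0.41 (SE 0.11, edgeR adjusted p = 0.00488). Its change was -0.23 without shUBXN1 replicate 1 and -0.63 without shUBXN1 replicate 2, with adjusted p-values of 0.0238 and 1.77e-06. USP49, an H2B deubiquitinase, was at 5.25 and 7.49 CPM against 12.6 and 8.04 CPM. Its groups nearly touched, and the call (0.70 ± 0.22, edgeR adjusted p = 0.0132) was lost without shUBXN1 replicate 1 (log2 fold change 0.34, adjusted p = 0.165) or without shCon replicate 1 (0.47, adjusted p = 0.0604). A protein-coding entry on the same strand, ENSG00000288721, covers 50.02% of the exon bases of USP49 and itself had a log2 fold change of 2.32, so the split of reads between them is uncertain.

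USP27X and USP51 are close relatives of USP22 that also cut H2B ubiquitin with the help of ATXN7L3 and ENY2, and both were higher. USP27X stood at 12.1 and 11.3 CPM in shCon and 18.2 and 18.2 CPM in shUBXN1 (log2 fold change 0.64 ± 0.12, edgeR adjusted p = 0.000303). USP51 stood at 0.563 and 0.341 CPM in shCon and 1.53 and 1.18 CPM in shUBXN1, the largest change of the members tested (1.58 ± 0.48, edgeR adjusted p = 0.0115). It rested on 15 and 8 counts against 37.9 and 27.7, and the adjusted p was 0.118 without shCon replicate 2 and 0.0829 without shUBXN1 replicate 1. By level, USP22 still made up 95.4% and 95.5% of the summed TPM of the 3 genes in shCon and 93.0% and 93.7% in shUBXN1. Of their shared cofactors, ATXN7L3 was higher, at 68.5 and 68.1 CPM against 87.2 and 90.5 CPM (log2 fold change 0.38, edgeR adjusted p = 0.000479). ENY2 was lower, at 124 and 127 CPM against 102 and 106 CPM (-0.27, edgeR adjusted p = 0.00479).

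USP1, USP12 and USP46 are activated by the same partner, the WD-repeat protein WDR48, and all 3 were called (56.2% of all genes were), but not in one direction. USP12 stood at 38.1 and 37.6 CPM in shCon and 45.1 and 46.9 CPM in shUBXN1 (log2 fold change 0.28 ± 0.080, edgeR adjusted p = 0.00793, and 0.129 without shCon replicate 2). USP46 stood at 22.95 and 24.7 CPM against 31.8 and 34.7 CPM (0.48 ± 0.094, edgeR adjusted p = 0.000566). USP1 was lower, as given above. WDR48 itself was at 32.0 and 34.7 CPM against 28.4 and 28.5 CPM (-0.23, edgeR adjusted p = 0.0427), and WDR20, the second activator of USP12 and USP46, was at 19.0 and 18.7 CPM against 16.0 and 15.3 CPM (-0.27, edgeR adjusted p = 0.0445). WDR48 and WDR20 were picked for their tie to these members after their values were seen.

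Several closely related pairs and groups differed in balance between shCon and shUBXN1, and those given here are a selection. Others overlapped. The share of USP16 beside USP45 was 89.2% and 89.2% in shCon and 84.2% and 89.5% in shUBXN1. The share of USP33 beside USP20 was 77.5% and 76.6% against 72.3% and 77.6%. Of all genes tested, 56.2% were called. USP4, USP11 and USP15 share their domain layout. USP4, known for roles in TGF-beta and spliceosome pathways, was at 39.0 and 40.5 CPM in shCon and 31.2 and 32.2 CPM in shUBXN1 and fell by 0.32 (SE 0.084, edgeR adjusted p = 0.00434, and 0.059 without shCon replicate 2). USP15, which acts on SMAD signaling, was at 79.2 and 78.2 CPM against 68.2 and 72.5 CPM and was not called (-0.16, edgeR adjusted p = 0.0765), but passed without shUBXN1 replicate 2 (-0.22, adjusted p = 0.0132). USP11 was higher, so its share of the summed TPM of the 3 genes went from 45.1% and 45.1% in shCon to 62.1% and 64.0% in shUBXN1. The share of USP4 was 35.3% and 36.0% in shCon and 23.8% and 22.4% in shUBXN1. No test of the shares was made.

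USP13 (chr3:179653032-179804366), the close relative of USP5 with weak activity on free chains, had the strongest fall among members above 1 TPM. It stood at 43.8 and 42.7 CPM in shCon and 22.4 and 20.8 CPM in shUBXN1, with the knockdown libraries far below the controls. The log2 fold change was -1.001 ± 0.089 (edgeR adjusted p = 3.59e-07), which lies at the 2-fold limit itself. The share of USP13 in the summed TPM of USP5 and USP13 was 12.3% and 11.1% in shCon and 6.94% and 5.96% in shUBXN1. A same-strand entry, ENSG00000288698, covers 16.1% of its exon bases and was not called (edgeR adjusted p = 0.111).

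To set related genes with unlike values side by side, the RefSeq promoter windows of 4 of their genes are shown (GRCh38.p14, 250 bases before to 50 after the annotated start, read on the gene's strand). Capitals mark a CCAAT box (CCAAT), a GC box (GGGCGGGG) or an ETS-type site (CCGGAAGT), each on either strand. The window of USP4 is at chr3:49340004-49340303 on the minus strand, 659 bases from the 5′ end of the GENCODE gene, and that of USP11 is at chrX:47232759-47233058 on the plus strand. The window of USP5 is at chr12:6851900-6852199 on the plus strand, and that of USP13 is at chr3:179652790-179653089 on the plus strand.
USP4: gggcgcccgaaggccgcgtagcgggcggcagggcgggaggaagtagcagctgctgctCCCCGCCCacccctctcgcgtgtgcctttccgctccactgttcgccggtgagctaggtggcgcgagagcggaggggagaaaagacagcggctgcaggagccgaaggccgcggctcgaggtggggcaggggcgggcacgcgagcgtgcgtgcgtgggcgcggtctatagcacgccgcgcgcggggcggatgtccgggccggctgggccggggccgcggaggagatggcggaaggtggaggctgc
USP11: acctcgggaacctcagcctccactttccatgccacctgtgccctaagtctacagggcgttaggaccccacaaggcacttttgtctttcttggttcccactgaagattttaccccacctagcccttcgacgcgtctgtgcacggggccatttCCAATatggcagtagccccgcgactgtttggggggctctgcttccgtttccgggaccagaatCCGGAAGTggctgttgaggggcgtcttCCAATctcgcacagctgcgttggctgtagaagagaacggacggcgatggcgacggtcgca
USP5: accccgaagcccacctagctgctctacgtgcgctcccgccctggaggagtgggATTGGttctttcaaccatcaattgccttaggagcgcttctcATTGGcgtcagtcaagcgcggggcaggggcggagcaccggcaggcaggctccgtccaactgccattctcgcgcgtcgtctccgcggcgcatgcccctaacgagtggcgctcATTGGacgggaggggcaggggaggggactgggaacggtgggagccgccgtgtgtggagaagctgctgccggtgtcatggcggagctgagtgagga
USP13: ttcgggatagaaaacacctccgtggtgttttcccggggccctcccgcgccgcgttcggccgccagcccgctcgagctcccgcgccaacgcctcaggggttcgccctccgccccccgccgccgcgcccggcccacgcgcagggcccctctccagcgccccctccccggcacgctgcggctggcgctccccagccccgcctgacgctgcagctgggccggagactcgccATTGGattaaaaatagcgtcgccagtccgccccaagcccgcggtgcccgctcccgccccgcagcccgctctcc
The window of USP4, whose RNA was lower, held a GC box and neither of the other motifs. The window of USP11, whose RNA was higher, held 2 CCAAT boxes and 1 ETS-type site. USP5 had 3 CCAAT boxes and USP13 had 1. The windows of USP4 and USP13 held 41 CpG pairs each, and those of USP11 and USP5 held 20 and 26.

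Over the family, 38 of the 47 members matched a promoter window, and for each the window nearest to the 5′ end of the GENCODE gene was kept. Their median was 34 CpG pairs per window, against 14 over all 35116 windows. The background holds every window, whatever its gene or the level of that gene here, so the sets are not matched. The GC box was in 22 of the 38 (57.9%, against 22.8% of all windows), the CCAAT box in 10 (26.3%, against 34.6%), and the ETS-type site in 3 (7.89%, against 4.14%). The E-box CACGTG was in 2 windows (5.26%, against 7.26% of all windows) and the TATA-type motif TATAAA in 2 (5.26%, against 11.5%), on either strand. A window was matched for 10 of the 17 members called higher and for all 11 called lower, so the 2 sets are unequally covered. The matched members called higher had a median of 35.5 CpG pairs (range 20 to 47), and those called lower 41 (range 20 to 50). The GC box was in 6 of the 10 matched members called higher and 6 of the 11 called lower. USP32 is among the former, with its window 30337 bases from the 5′ end of the GENCODE gene. The CCAAT box was in 3 of the matched members called higher and 2 of those called lower. These are matches of letters and no measure of binding.

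**Figure D3:**
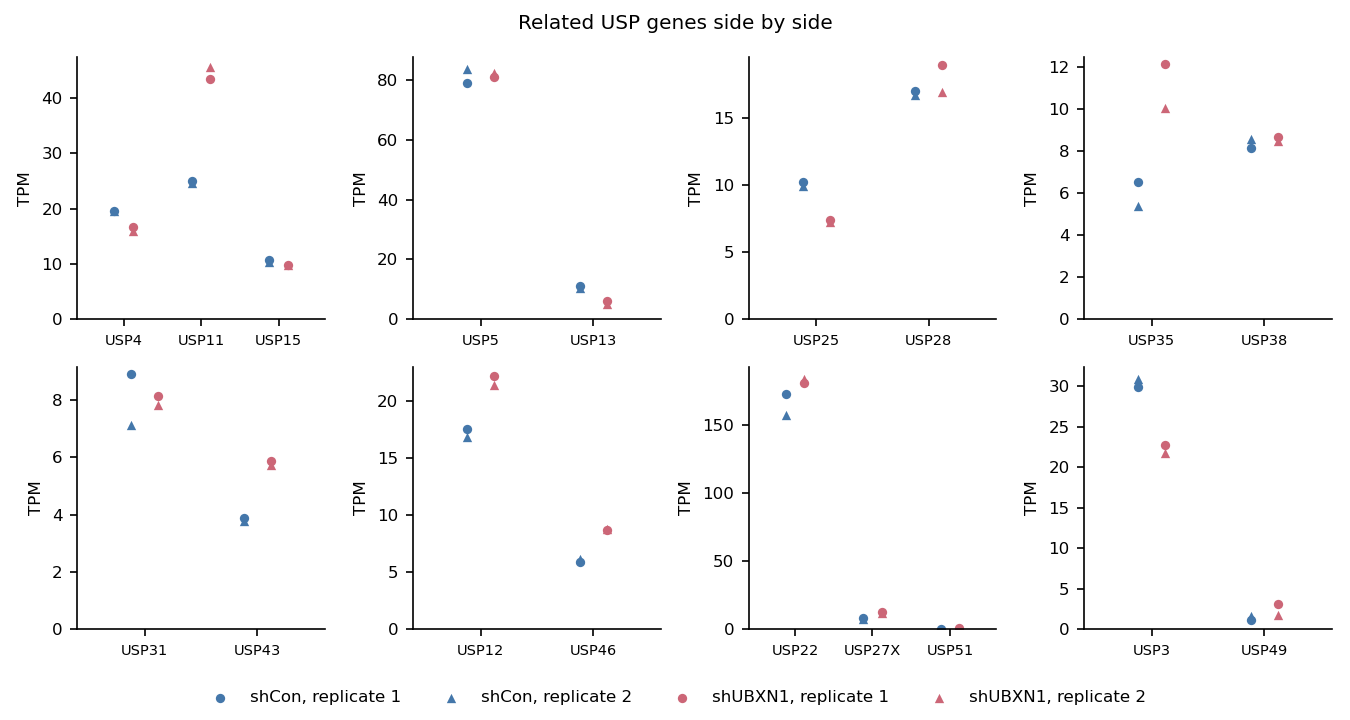
Level in TPM (linear axis) of related USP genes in 8 groups, a selection of the related groups examined, each panel on its own scale from 0. Blue points are shCon, red are shUBXN1, circles are replicate 1 and triangles replicate 2. USP11 separates upward from 24.6 and 24.9 to 43.4 and 45.6 TPM beside USP4 and USP15, while USP13, USP25 and USP3 lie lower in shUBXN1.

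USP25 and USP28 are another related pair. USP25, which acts in innate immune and inflammatory signaling, was at 27.1 and 27.2 CPM in shCon and 18.3 and 19.3 CPM in shUBXN1 and fell by 0.53 (SE 0.098, edgeR adjusted p = 0.000371). Its share of the summed TPM of the pair was 37.5% and 37.3% in shCon and 28.0% and 29.9% in shUBXN1. USP35, known with USP30 in mitochondrial quality control, stood at 15.1 and 12.9 CPM in shCon and 26.5 and 23.6 CPM in shUBXN1 (log2 fold change 0.83 ± 0.12, edgeR adjusted p = 2.88e-05). Its relative USP38 was at 28.4 and 30.7 CPM against 28.3 and 29.8 CPM, with overlapping groups. USP35 made up 44.4% and 38.6% of the summed TPM of this pair in shCon and 58.4% and 54.3% in shUBXN1. USP43 stood at 7.95 and 8.003 CPM in shCon and 11.4 and 11.96 CPM in shUBXN1 (0.55 ± 0.14, edgeR adjusted p = 0.0041), while its relative USP31 overlapped between groups at 47.6 and 39.3 against 40.9 and 42.4 CPM.

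Of the 6 members listed for inflammatory and innate immune signaling, USP43 was higher, USP4 and USP25 were lower, and USP21, USP31 and USP38 did not pass (28.0% of all genes were higher and 28.2% lower). Of the 4 listed for mitochondria, USP35 was the one called. USP30, which sits on the outer mitochondrial membrane and opposes parkin, was at 21.3 and 18.5 CPM against 21.2 and 20.9 CPM (log2 fold change 0.08 ± 0.11, edgeR adjusted p = 0.542). USP36, a nucleolar enzyme also tied to mitochondrial protein stability, was at 122 and 117 CPM against 115 and 108 CPM (-0.10, edgeR adjusted p = 0.276). Its relative USP42 was at 24.8 and 21.9 CPM against 27.4 and 29.3 CPM (0.28 ± 0.099, edgeR adjusted p = 0.0271), a call lost without shCon replicate 2 (0.18, adjusted p = 0.352) or shUBXN1 replicate 2 (adjusted p = 0.0978).

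Of the 7 members listed for endosomes, the endoplasmic reticulum and membrane traffic, 2 were higher, 1 (USP2) was lower and 4 did not pass. Of all genes, 28.0% were higher and 28.2% lower. The list is loose, and USP2 is described below by other substrates. USP32, an enzyme of internal membranes that acts on Rab7, lies on the minus strand at chr17:60177327-60422470. It was at 71.4 and 71.1 CPM in shCon and 132 and 129 CPM in shUBXN1. The replicates lay close together and far from the other group, and the log2 fold change was 0.88 ± 0.072 (edgeR adjusted p = 1.58e-07), the smallest p of any member. Its counts were fractional in every library, and the source of the fractions was not tested. Its pseudogene USP32P3 had 81.04 to 202.07 counts in a library against 1670 to 3275 for USP32, with a log2 fold change of 0.79. USP19, an enzyme anchored in the endoplasmic reticulum, was at 52.7 and 53.7 CPM against 63.9 and 70.8 CPM (0.34 ± 0.079, edgeR adjusted p = 0.00219).

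USP2, which acts on cyclin D1 and MDM2, was scarce at 1.61 and 1.15 CPM in shCon and 0.647 and 0.641 CPM in shUBXN1. It fell by 1.10 (SE 0.44, edgeR adjusted p = 0.0469), on 43 and 27 counts against 16 and 15. USP2-AS1 on the other strand covers 25.25% of the exon bases of USP2. It had 17 and 6 counts in shCon and 8 and 7 in shUBXN1, so the values of USP2 are uncertain. The call was lost when any 1 library was left out: the adjusted p was 0.36 and 0.0718 without shCon replicate 1 or 2, and 0.113 and 0.11 without shUBXN1 replicate 1 or 2. USP6, a hominoid gene that arose in part from USP32, was at 0.331 and 0.341 CPM in shCon and 1.33 and 0.471 CPM in shUBXN1. It passed the 2-fold limit with an unadjusted p of 0.0321 but not the adjusted threshold (log2 fold change 1.41 ± 0.59, edgeR adjusted p = 0.0562). Its highest library held 33.02 counts, and the other 3 held 8.01 to 11.02. Its log2 fold change was 1.95 without shUBXN1 replicate 2 (adjusted p = 0.016) and 0.46 without shUBXN1 replicate 1 (adjusted p = 0.692), and the adjusted p was 0.186 and 0.178 without shCon replicate 1 or 2. USP8, which sorts receptors such as EGFR with its partners STAM and STAM2, and USP20 overlapped between groups, at 65.7 to 76.1 and 16.1 to 17.9 CPM over the 4 libraries. USP33, the relative of USP20, was at 61.7 and 59.8 CPM against 48.1 and 57.5 CPM and did not pass (-0.20, edgeR adjusted p = 0.0638), with a range from -0.08 (adjusted p = 0.388) without shUBXN1 replicate 1 to -0.35 (adjusted p = 0.00061) without shUBXN1 replicate 2. With a replicate block its adjusted p was 0.0177, and with no filter on low counts 0.0408.

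The 4 very long members all had shUBXN1 above shCon in each library, as did 6639 of the 16863 genes tested. Of the 4, 3 were called higher, beside 28.0% of all genes. USP34, which acts on axin in Wnt signaling, was at 150 and 139 CPM in shCon and 218 and 192 CPM in shUBXN1 (log2 fold change 0.50 ± 0.082, edgeR adjusted p = 0.000124). AHSA2P on the other strand covers 17.7% of its exon bases and had a log2 fold change of 0.64. USP9X, which spares MCL1 from the proteasome, was at 394 and 362 CPM against 459 and 428 CPM (0.23 ± 0.080, edgeR adjusted p = 0.0251), with 0.29 (adjusted p = 0.0505) without shCon replicate 1 and 0.15 (adjusted p = 0.5) without shCon replicate 2. USP9Y, its copy on the Y chromosome, was at 22.4 and 22.2 CPM against 39.5 and 33.3 CPM (0.71 ± 0.10, edgeR adjusted p = 3.52e-05). Reads of so similar a pair can be assigned to the wrong copy, and counts of USP9Y were fractional in 2 of the 4 libraries. USP24 was at 108 and 106 CPM against 114 and 111 CPM and was not called (0.08 ± 0.071).

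The 4 members on the X chromosome, USP9X, USP11, USP27X and USP51, were each higher, a grouping chosen after the values were seen. Of 562 genes tested on the X chromosome, 148 were higher and 173 lower.

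USP40, an enzyme with few known substrates, had the third largest fall. It was at 37.1 and 32.5 CPM in shCon and 22.7 and 19.1 CPM in shUBXN1 and fell by 0.74 (SE 0.11, edgeR adjusted p = 4.68e-05). USP45, the relative of USP16, was at 12.5 and 11.6 CPM against 12.1 and 9.995 CPM, and USP21, the relative of USP2, was at 16.8 and 20.7 CPM against 17.1 and 16.9 CPM, with both pairs of groups overlapping. USP53 and USP54, long classed as inactive, were not called, with log2 fold changes of 0.09 and -0.15. The antisense gene PPP3CB-AS1, which fell by 1.21, lies among the genes that cover 23.8% of the exon bases of USP54. USP50, also classed as inactive, was the member nearest to the threshold of 20 summed counts, with 4.01 and 2.01 counts in shCon and 9 and 8 in shUBXN1 (23.02 in all). It did not pass the filter on low counts and was not tested. Of the genes outside the membership, USP41 had 16.11 summed counts and is a pseudogene in the annotation, USP44 had 11, and USP26 and USP29, relatives of USP37, were at 0 in every library.

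Gene properties were set beside the changes. Over the 46 members, the correlation of log2 fold change with GC content was r = 0.05 (Spearman's rho 0.08), and with log2 gene length r = 0.16 (rho 0.17). With log2 level it was r = -0.34 (rho -0.25), beside r = -0.24 (rho -0.24) over all genes tested. These values are descriptions across genes of the same 4 libraries, and genes are not independent replicates.

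The deubiquitinases of other folds, with CYLD, which has a diverged USP fold, served as the nearest group for comparison. Of 36 such genes, 34 were tested, 16 were higher and 6 lower (64.7% called, against 56.2% of all genes). At the 2-fold threshold 7 were higher (20.6%, against 11.8%). Their median log2 fold change was 0.22, beside 0.003 for the USP members. The difference between the groups of genes was not tested. YOD1, an OTU deubiquitinase that works with the unfoldase VCP, was at 34.5 and 33.0 CPM in shCon and 101 and 106 CPM in shUBXN1 (log2 fold change 1.61 ± 0.078, edgeR adjusted p = 1.14e-09). OTUD3 was at 17.1 and 18.0 CPM against 51.3 and 48.6 CPM (1.51 ± 0.089, edgeR adjusted p = 7.25e-09). TNFAIP3, the NF-kappa B inhibitor A20, was at 13.9 and 13.2 CPM against 36.0 and 36.2 CPM (1.41 ± 0.098, edgeR adjusted p = 3.12e-08). OTUD1, singled out after its values were seen, had the largest log2 fold change of the list, 2.21. The 3 falls with the smallest p were JOSD1 (-0.64), the proteasome-bound UCHL5 (-0.55) and UCHL3 (-0.89).

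**Figure D4:**
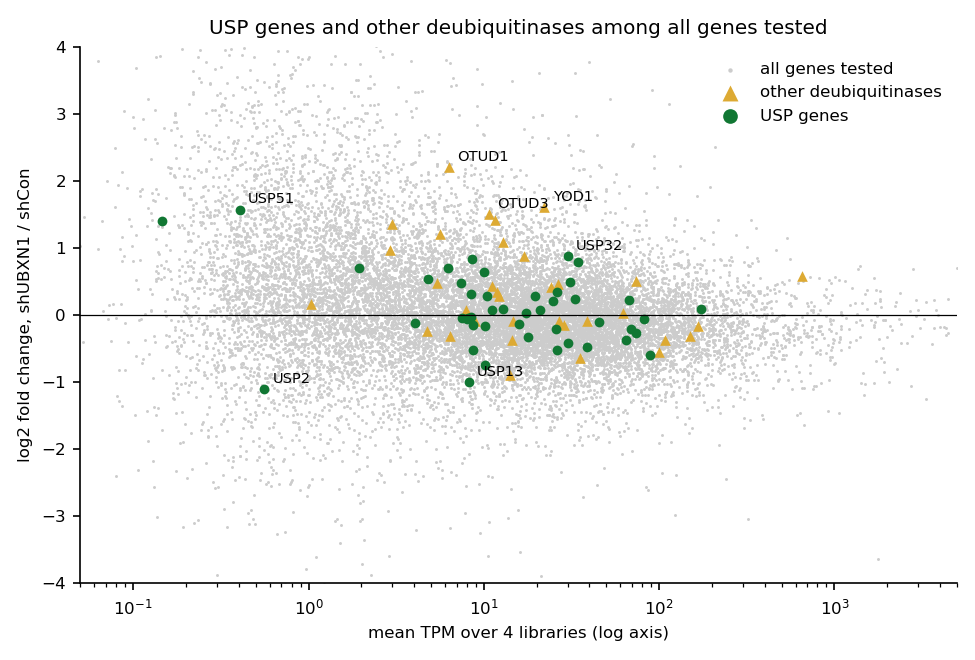
Log2 fold change against mean TPM over the 4 libraries (log axis) for all genes tested (grey), USP genes (green circles) and other deubiquitinases (yellow triangles); 134 genes lie outside the axes. USP genes above 1 TPM stay between -1.001 and 0.88. Below 1 TPM, USP51 lies at 1.58, USP6 at 1.41 and USP2 at -1.10. Of the other deubiquitinases, 7 lie above 1 on the log2 scale, each with a mean above 1 TPM.

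Of 10 cofactors of USP proteins, 6 were lower (28.2% of all genes) and ATXN7L3 was higher (28.0%), with a median log2 fold change of -0.25. The falls with the smallest p were G3BP1, the stress granule protein bound by USP10, at 199 and 197 CPM against 151 and 168 CPM (-0.31, edgeR adjusted p = 0.0033), ENY2 (above), and GMPS, which stimulates USP7, at 149 and 140 CPM against 107 and 127 CPM (-0.31, edgeR adjusted p = 0.00732).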

How the data were processed

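RNA from 4 libraries of MHCC97H cells was sequenced, 2 shCon and 2 shUBXN1, grouped by the sample labels. The authors aligned reads with HISAT2, and the deposited values are expected counts for each gene without any scaling, beside a gene length. The submitters' processing notes list HISAT2 2.0.4, StringTie 1.3.0 and GRCh37, whereas the study's methods name GRCh38. The tool that made the counts, the annotation release and the use of strand are not given in the sources used here. Of the gene IDs, 99.7% matched GENCODE v44 (GRCh38), from which biotypes, positions and overlaps of exons were taken. The table has no coordinates of its own.

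Expected counts were rounded, filtered with filterByExpr and scaled by TMM. The quasi-likelihood test of edgeR 4.0.16 (R 4.3.3) was fitted with group as the only term, 2 residual degrees of freedom and Benjamini-Hochberg adjustment over 16863 genes. Each standard error was the size of the log2 fold change over the root of its F statistic. CPM used TMM library sizes and TPM the deposited lengths. Of the values above 0, 62.4% to 64.6% in a library were exactly whole numbers. Replicates differed beyond counting noise (chi-square per degree of freedom 3.65 in shCon and 7.77 in shUBXN1), so none was a copy of another. Alternatives were total count scaling, RLE size factors, 2 other filters, a replicate block, unrounded counts, a GC correction, DESeq2 1.42.0, limma-voom and limma on log2(TPM + 1) in limma 3.58.1, a fold of 1.5 and leaving out each library. The edgeR steps were checked on simulated counts in which few genes changed and every gene had the same dispersion. In the data 56.2% of genes tested were called, a setting that this check does not cover. Promoter windows are RefSeq's.

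Named genes were every member past a 2-fold change and p under 0.05, the 10 largest rises and falls, the 5 of highest level, those nearest to 20 counts, related genes, up to 4 per role list, and the 3 smallest p in each direction from the other lists. The members, lists and tests were chosen with earlier results of these data known. The role lists came from general knowledge and are loose, and USP2, USP4 and USP15 are described above by roles outside their lists. The list of ubiquitin and E1 genes is not reported here.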

Additional observations from a re-analysis of the deposited data

How the results depend on the processing

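Of the 28 USP genes called at an adjusted p under 0.05, 17 were called in each of the 15 alternatives that refit the data, 11 were lost at least once, 6 of them when a library was left out and otherwise not, and none of the 28 changed direction. The counts of members higher and lower, 17 and 11, were 17 and 12 with the replicate block. Over all 16863 genes they were 4727 and 4751, and 5000 and 5023 with the block. The sources do not say whether the replicate numbers pair the libraries. The correlation of the replicate 1 deviations was 0.04, which with 2 pairs cannot decide this. Without shCon replicate 2, which left 1 library in that group, fewer members were called, and fewer of all genes tested as well. At the 2-fold threshold, 2 higher and 2 lower became 8 and 4 with a fold of 1.5, 0 and 1 with at least 10 counts in every library, which drops USP6 and USP51, 1 and 1 with DESeq2 and 0 and 0 with limma on log2(TPM + 1). There were 1 higher with limma-voom, and 1 lower with total count scaling, with the GC correction and with the replicate block and GC correction. The counts also moved with a library left out. The 2-fold share over all genes was not computed in these refits, and the cause was not tested. With all 4 libraries, the calls of USP2, USP37, USP42 and USP48 were lost with DESeq2. Those of USP2, USP37, USP42 and USP49 were lost with limma on log2(TPM + 1). The call of USP2 was also lost with total count scaling and with the replicate block. Signs turned in 8 members that were not called. With total count scaling, which moved the median of all genes from 0.016 to 0.10, USP20 was at 0.0378, USP31 at 0.0217, USP38 at 0.0598, USP5 at 0.0313 and USP8 at 0.0401. On log2(TPM + 1) they were at 0.0071, 0.0030, 0.0306, 0.0059 and 0.0166. USP38 was at 0.0029 with at least 10 counts in every library, and with the GC correction USP38 was at 0.0284 and USP8 at 0.00996, or 0.0287 and 0.0121 with the replicate block added. With a library left out, USP5 ranged from -0.134 to 0.0091, USP8 from -0.162 to 0.0671, USP20 from -0.129 to 0.0089, USP21 from -0.282 to 0.0010, USP28 from -7.9e-05 to 0.0425, USP30 from -0.0293 to 0.187, USP31 from -0.209 to 0.0844 and USP38 from -0.0824 to 0.0177. Depth limits USP2, USP6, USP50 and USP51, which had under 45 counts in each library.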
